A study of Mus musculus with 47 samples.

Results

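Ccl17, Ccl22 and Ccl24 are 3 chemokine genes of the mouse, chosen by their gene symbols, and they were measured here as 3 of the 51912 genes of the bone marrow-derived macrophage (BMDM) tables. All 3 were found in every one of the 7 tables read. The series holds 47 samples, of which the 12 RNA-seq libraries were used and the other 35 were not analysed here. Each condition was 1 library, so no difference below has a replicate check, and every limit given is a 95% limit that covers counting error only.

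The 6 BMDM libraries came from C57BL/6 mice. WT cells came from littermates that carried the floxed Zmynd8 allele without Cre, and Zmynd8 cKO cells came from mice with the same floxed allele and Cre expressed from the Lyz2 locus, which is active in myeloid cells and not in macrophages alone. Exons 6 and 7 of Zmynd8 were floxed. The cells were grown with M-CSF at 20 ng/ml and were left without treatment (NT), treated with the bacterial cell wall component LPS at 100 ng/ml for 6 h, or treated with the cytokine IL-4 at 20 ng/ml for 6 h. Each of these libraries was made from a mix of 3 biological replicates (per the Methods). The other 6 libraries were labelled Raw264.7, a mouse macrophage-like cell line, with bone marrow as the source and C57BL/6 as the strain, and their knock-outs were made by lentiviral CRISPR. The labels of the 3 Zmynd8 lines name no treatment of their own, and the Results place the D/E-A comparison after LPS, with no dose or time. WT Zmynd8 denotes Zmynd8 KO cells given back Zmynd8, and D/E-A denotes Zmynd8 KO cells given a Zmynd8 in which acidic residues of its disordered region were changed to alanine. p65 KO cells, p65 KO cells with K122R p65 and p65 KO cells with WT p65 were all labelled as treated with LPS, with no dose or time. The column taken as WT p65 is headed only as WT with LPS, so that unmodified cells are not excluded for it.

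Ccl17 and Ccl22 encode the 2 ligands of the receptor CCR4, which is carried by T helper 2 cells, regulatory T cells and skin-homing T cells. Macrophages and dendritic cells secrete both, and IL-4, acting through STAT6, is a known inducer of both genes. GM-CSF, acting through STAT5, is a known inducer of Ccl17, and NF-κB is a known activator of both. Ccl24, also called eotaxin-2, is a ligand of CCR3, the receptor that draws eosinophils, and it is known as a product of IL-4-treated macrophages. ZMYND8 is a chromatin reader protein, and p65, encoded by Rela, is an NF-κB subunit.

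Ccl22 and Ccl17 lie on the same strand of chromosome 8. In the GENCODE annotation of GRCm38 (mm10), Ccl22 spans chr8:94745590-94751699 and Ccl17 spans chr8:94810453-94812036, with 64863 bases between their starts. Cx3cl1, which encodes the chemokine fractalkine, lies between them, at chr8:94772009-94782427. Ccl24 lies on another chromosome, on the minus strand, at chr5:135569937-135573049. The exons cover 2325 bases for Ccl22, 514 bases for Ccl17 and 1295 bases for Ccl24, so reads per gene are not levels that can be compared between the 3 genes.

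Promoters were found in the RefSeq table (GRCm38.p6) for 2 of the 3 genes, and are shown because these 2 neighbours are the members that were higher together after IL-4. Each is given for the 250 bases before the RefSeq start on the plus strand, chr8:94745434-94745683 for Ccl22 and chr8:94810203-94810452 for Ccl17. The GENCODE start of Ccl22 lies inside its window. Capitals mark matches, on either strand, to TTCNNNNGAA (the spacing that STAT6 prefers) or TTCNNNGAA (the spacing of other STAT factors).
Ccl22: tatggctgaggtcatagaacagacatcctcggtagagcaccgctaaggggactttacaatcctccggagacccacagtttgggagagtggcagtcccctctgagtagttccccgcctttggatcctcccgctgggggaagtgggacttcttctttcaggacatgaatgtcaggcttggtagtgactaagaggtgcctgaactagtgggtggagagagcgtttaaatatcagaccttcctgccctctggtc
Ccl17: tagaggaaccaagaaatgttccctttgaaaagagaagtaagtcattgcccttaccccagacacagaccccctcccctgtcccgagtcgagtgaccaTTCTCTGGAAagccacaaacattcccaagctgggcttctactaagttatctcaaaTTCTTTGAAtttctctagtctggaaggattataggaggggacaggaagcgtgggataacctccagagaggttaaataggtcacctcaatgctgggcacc
The Ccl17 window held 1 match of each kind, TTCTCTGGAA at 154 to 145 bases before the start and TTCTTTGAA at 99 to 91 bases before it, and these do not overlap. The Ccl22 window held neither, and neither window held a match to the κB motif. Among all 32851 promoter windows of the table, which also take in 50 bases after the start, 6.95% held TTCNNNNGAA, 8.30% held TTCNNNGAA and 4.51% held the κB motif. A primer pair that the study lists for a Ccl22 enhancer maps once each to chr8:94744975-94745143, which ends 541 bases before the RefSeq start of Ccl22, overlaps no annotated gene and lies before the printed window.
Ccl22 F: acgtggagctttgagtttgca
Ccl22 R: cagtcttcccttacccacgtc

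BMDM libraries held 22597425 to 28386646 counts and Raw264.7 libraries 15127110 to 21042628 reads. Counts for Zmynd8 over the whole gene were not lower in cKO than in WT cells after LPS (2033 against 1967) or IL-4 (3944 against 3636), and were 1842 against 2284 in NT cells. Such counts take in exons outside the deleted part, so they check nothing about the deletion. Lyz2, the locus that carries Cre, was at 0.419 to 0.658 times the WT level in the cKO libraries. In the cell lines Zmynd8 fell to 5.75 reads per 1000000 reads (RPM) in Zmynd8 KO cells from 26.4 in WT Zmynd8 cells, and Rela was at 50.6 in p65 KO, 102 in WT p65 and 351 in K122R cells. All 6 macrophage markers were above 0 in all 12 libraries, though Mertk had only 2 to 4 reads in the p65 lines. They summed to 6128 to 9443 CPM in BMDMs, 2184 to 3690 RPM in the Zmynd8 lines and 1116 to 1247 RPM in the p65 lines. The 3 libraries labelled as Zmynd8 lines stood apart from the 3 p65 lines. They held Xist at 338 to 460 RPM against 0 to 0.198, although Raw264.7 was established from a male mouse, and 7 neutrophil markers summed to 4419 to 10340 RPM against 0.180 to 0.319. With 1 library per line, no value of the Zmynd8 lines can be given without these libraries. The sums of 4 B cell markers (102 to 147 against 5.42 to 8.17) and 3 eosinophil markers (67.8 to 191 against 0.180 to 0.638) were also higher in them. Fewer cells of a type and less RNA per cell cannot be told apart in any of these bulk libraries.

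Ccl22 was the most abundant of the 3 genes in treated BMDMs and rose after both treatments. NT cells held 43 Ccl22 counts in WT and 25 in cKO. LPS-treated cells held 1091 in WT and 1844 in cKO. IL-4-treated cells held 2805 in WT and 5256 in cKO. As counts per 1000000 counts of the library (CPM), the order from the highest down was cKO IL-4 at 201 (limits 196 to 207), WT IL-4 at 98.8 (95.2 to 103), cKO LPS at 78.7 (75.1 to 82.4), WT LPS at 43.8 (41.2 to 46.5), WT NT at 1.64 (1.19 to 2.21) and cKO NT at 1.11 (0.716 to 1.63). Only the limits of the 2 NT libraries overlapped between neighbours in that order, so that each treated library stood apart from the next.

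Ccl17 was seen almost solely in the 2 IL-4 libraries. It had 1 count in WT NT, 0 in cKO NT, 0 in WT LPS and 1 in cKO LPS, against 189 in WT IL-4 and 456 in cKO IL-4. A floor of 3 counts, set here for a count of 0, is 0.133 CPM in the cKO NT library and 0.120 CPM in the WT LPS library. The exact upper limits of these 0 counts are higher, at 0.163 and 0.148 CPM. The IL-4 libraries stood at 6.66 CPM (limits 5.74 to 7.68) in WT and 17.5 CPM (15.9 to 19.1) in cKO, and their limits did not overlap.

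Ccl24 was near the lower end of detection in all 6 BMDM libraries. There were 9 counts in WT NT, 9 in cKO NT, 34 in WT LPS, 27 in cKO LPS, 16 in WT IL-4 and 14 in cKO IL-4. These are 0.343 to 1.37 CPM, with the LPS libraries the highest and the NT libraries the lowest. In the order of levels, the limits of every pair of neighbours overlapped.

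**Figure D1:**
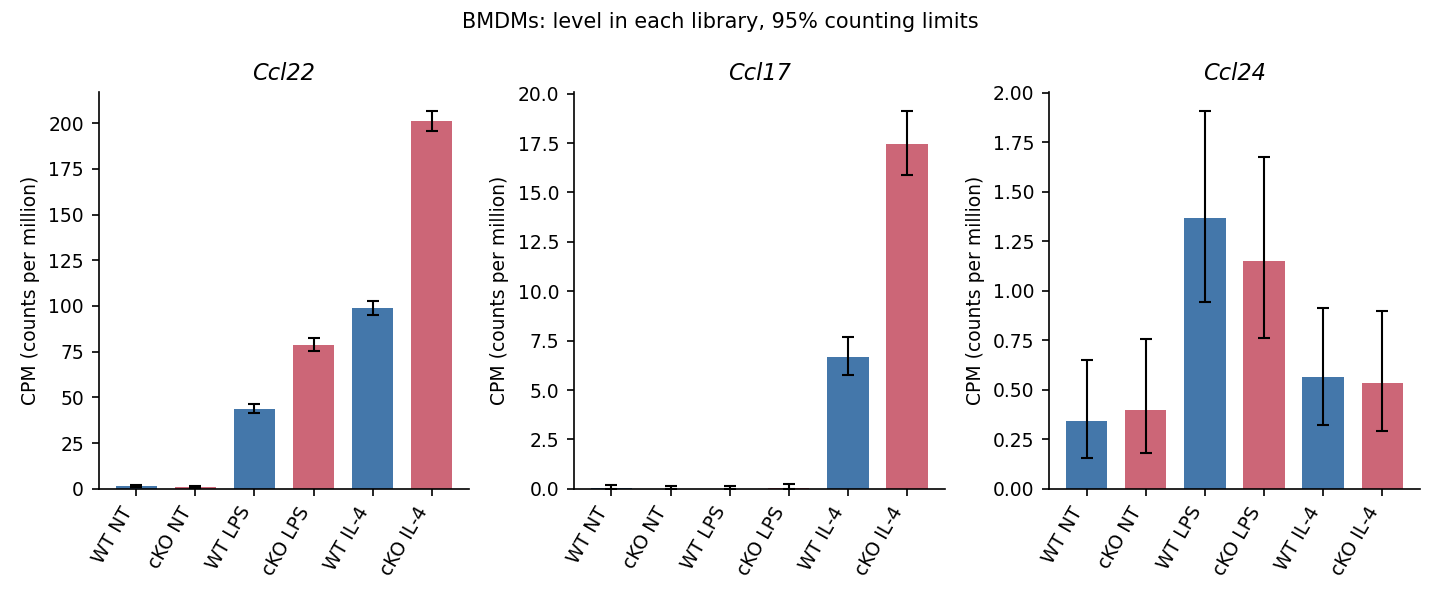
Level of Ccl22, Ccl17 and Ccl24 in each BMDM library, in CPM on axes that start at 0, with WT in blue and cKO in red. Bars are 1 library each and error bars are exact 95% Poisson limits. The cKO bar is above the WT bar after LPS and after IL-4 for Ccl22 and after IL-4 for Ccl17, while the bars of each Ccl24 pair share their limits.

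The comparison of cKO with WT asks whether the loss of Zmynd8 in myeloid cells goes with another level of these genes. A gene was tested where its 2 libraries averaged 10 or more counts, and it was called where its fold change on CPM + 1 reached 1.2. After IL-4, 2 of the 3 members tested were called higher in cKO, where 17.3% of all 13245 genes tested were. Ccl17 was at 2.62 times the WT level (limits 2.21 to 3.12), with a log2 fold change of 1.27, at the 99.2 percentile of genes tested. Ccl22 was at 2.04 times the WT level (1.94 to 2.13), with a log2 fold change of 1.02, at the 98.5 percentile. Both also reached a fold change of 2, which 1.56% of genes passed upwards, but Ccl22 lay at that limit and fell short of it with deposited TPM, at a log2 fold change of 0.99. Ccl24 was not called, with a ratio of 0.951 and wide limits of 0.430 to 2.08. The sum of the 8 dendritic cell markers was lower in cKO than in WT after IL-4 (216 against 248 CPM), with Cd209a at 0 in both. Itgax carried this difference (210 against 242), and Zbtb46 (2.33 against 3.14) and Siglech (0.0765 against 0.247) were also lower in cKO. Ccr7 (0.880 against 0.317), Xcr1 (1.22 against 0.528), Clec9a (0.919 against 0.740) and Flt3 (0.919 against 0.881) were higher in cKO. The sum of the 7 neutrophil markers was also higher in cKO (514 against 382 CPM). Their part in the result was not tested.

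After LPS, 1 of 2 members tested was called higher, where 22.6% of 12387 genes were. Higher genes made up 62.8% of all calls, or 51.4% with median-ratio scaling. Ccl22 was at 1.80 times the WT level (limits 1.67 to 1.94), with a log2 fold change of 0.83, at the 98.8 percentile of genes tested. It did not reach a fold change of 2, which 0.573% of genes passed upwards. Ccl24 was not called, with a ratio of 0.844 (0.490 to 1.44). Ccl17, with 1 count in cKO and 0 in WT, was not tested. The dendritic cell marker sum was 62.4 CPM in cKO and 42.6 in WT after LPS, with Flt3 and Cd209a at 0 in both, and its part in the result was not tested.

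In NT cells, Ccl22 was the 1 member tested, and it was called lower in cKO, where 29% of 12463 genes were called lower and 54% were called in either direction. Its ratio was 0.674 with limits of 0.395 to 1.13, which include 1, and a rule that also required an adjusted p under 0.05 from an exact binomial test on the reads did not call it, where that rule called 26.1% of genes lower. Ccl24 had 9 counts in both NT libraries. Xist, which marks female cells, also differed between the WT and cKO libraries, with log2 fold changes of −1.19 in NT, 0.80 after LPS (at the 98.7 percentile of genes tested) and −0.07 after IL-4, and its part in these results was not tested.

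**Figure D2:**
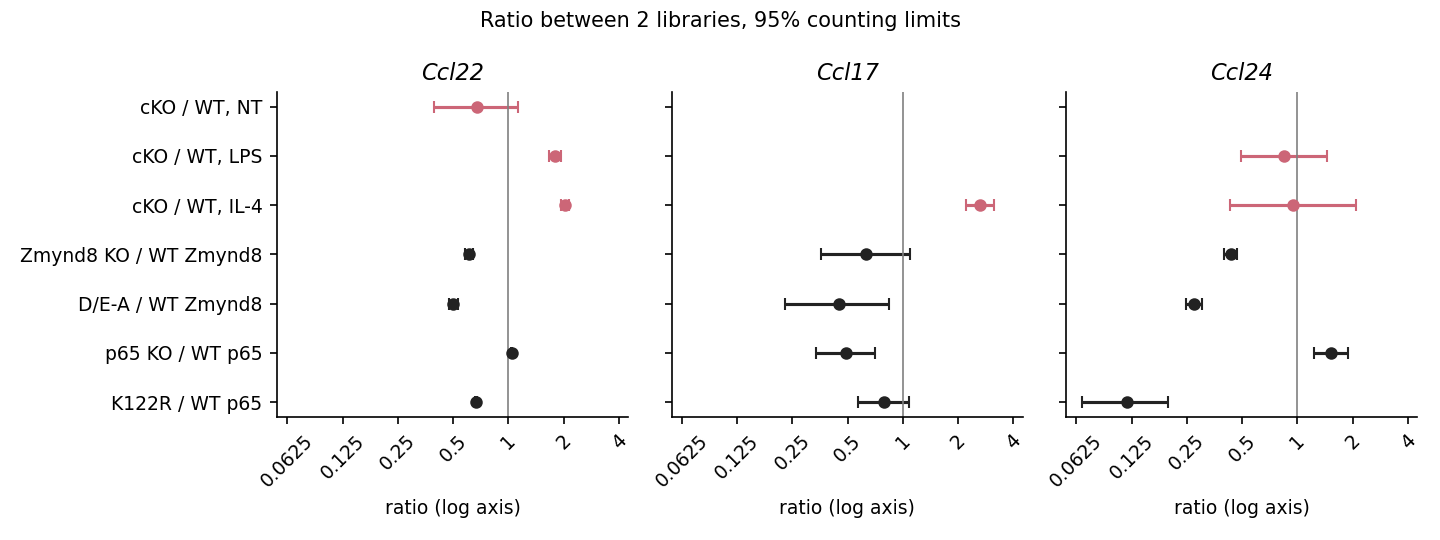
Ratio between 2 libraries for each gene and comparison that was tested, on log axes, with red for BMDMs and black for Raw264.7 lines. Points are ratios, error bars are 95% Clopper-Pearson limits and the grey line marks 1. Ccl22 lies above 1 in cKO BMDMs after LPS and IL-4 and below 1 in Zmynd8 KO, D/E-A and K122R cells.

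The responses to the 2 treatments were compared within each genotype. NT, LPS and IL-4 libraries each come from a separate table of estimated counts, so these levels are set across tables. The IL-4 libraries also carry sample numbers of another range in their labels than the NT and LPS libraries, so a difference in sequencing cannot be told apart from the IL-4 treatment. Ccl22 rose 26.7-fold with LPS in WT cells (limits 19.7 to 37.1) and 71.1-fold in cKO cells (48.0 to 110). With IL-4 it rose 60.2-fold in WT cells (44.6 to 83.4) and 182-fold in cKO cells (123 to 281). On CPM + 1, the log2 response was larger in cKO by 1.16 for LPS and by 1.34 for IL-4, differences that were not tested and that share the NT libraries, where cKO had fewer Ccl22 counts.

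Ccl17 had 189 counts with IL-4 against 1 without in WT cells, a ratio of 175 whose limits run from 30.9 to 6929. In cKO cells it had 456 counts against 0. This is 131-fold higher when the NT library is set to the floor of 3 counts, and the lower Clopper-Pearson limit of the ratio was 106. Ccl24 rose 3.98-fold with LPS in WT (1.87 to 9.43) and 2.89-fold in cKO (1.32 to 6.99). With IL-4 its ratios were 1.64 in WT (0.683 to 4.21) and 1.35 in cKO (0.542 to 3.52), and it was not called. It would have been called higher with a pseudocount of 0.1 (log2 fold change 0.58 in WT and 0.35 in cKO) or from deposited TPM (0.27 and 0.39). Ccl22 and Ccl24 were called higher for LPS in each genotype, where 21.7% of genes were in WT and 25% in cKO, and Ccl17 and Ccl22 were called higher for IL-4, where 41.3% were in WT and 44.7% in cKO. Ccl24, with 9 counts in each NT library, reached the mean of 10 counts only through the treated libraries, and Ccl17, with 1 and 0 NT counts, only through the IL-4 libraries. Such a gene was tested because it was high after treatment, so these calls are descriptions. The median log2 fold change of all genes tested was −0.58 with LPS in WT and −0.55 in cKO, so the LPS values stand against a general shift downwards on this scale. Scaling by the median ratio or TMM in place of library totals moved that median up by 0.47 to 0.51 for LPS and down by 0.14 to 0.20 for IL-4, and the share of calls that were higher went from 25.6% to 46.1% (LPS in WT), from 29.3% to 47.3% (LPS in cKO), from 64.1% to 50.4% (IL-4 in WT) and from 63.1% to 50.8% (IL-4 in cKO) with the median ratio. The members kept their directions under both.

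Marker sums moved with IL-4 as well. Neutrophil markers summed to 382 CPM in WT IL-4 and 514 in cKO IL-4, against 2.29 to 4.22 in the other 4 BMDM libraries, with all 7 above 0. Dendritic cell markers summed to 248 and 216 CPM against 42.6 to 68.6, and Itgax alone, an integrin also carried by macrophages, made up 242 and 210 of these. The dendritic cell receptor gene Flt3 was at 0.881 and 0.919 CPM in the 2 IL-4 libraries and at 0 in the others, and Cd209a was at 0 or 1 count throughout. Zbtb46 was at 3.14 CPM in WT IL-4 and 2.33 in cKO IL-4, against 0 to 0.522 in the other 4 BMDM libraries. Ccr7, Xcr1 and Clec9a of the same list were higher with LPS (4.90, 7.23 and 3.01 CPM in WT, and 7.04, 8.58 and 4.95 in cKO) than with IL-4 (0.317, 0.528 and 0.740 in WT, and 0.880, 1.22 and 0.919 in cKO). The part of these cells in the levels of Ccl17 and Ccl22 was not tested.

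Per length, as deposited TPM (transcripts scaled for length and library), Ccl17 came close to Ccl22 after IL-4. Ccl22 stood at 71.4 TPM in WT and 143 in cKO, and Ccl17 at 39.1 in WT and 99.9 in cKO, so Ccl22 was 1.82 times Ccl17 in WT and 1.43 times in cKO. Ccl24 was 2.23 and 2.43 TPM in the same libraries. In NT cells Ccl24 had the higher TPM, at 1.68 in WT and 1.62 in cKO against 1.17 and 0.660 for Ccl22, on 9 Ccl24 counts each. This order depends on the lengths behind TPM, which are not given here. Counts divided by the exon lengths above, with 43 (WT) and 25 (cKO) for Ccl22, would put Ccl22 higher instead. Ccl22 TPM ranged from 0.407 times that of Ccl24 in cKO NT to 58.7 times in cKO IL-4.

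In the Raw264.7 lines Ccl22 was the highest of the 3 genes per length, here as reads per kilobase of the exon lengths above. The deposited TPM of BMDMs rests on lengths that are not given and need not be the same. Ratios between genes are therefore not set against those of BMDMs. It held 107334 reads in WT p65, 108269 in p65 KO and 68617 in K122R cells, which is 0.412% to 0.716% of all reads of those libraries. It held 3854 reads in WT Zmynd8, 2565 in Zmynd8 KO and 1845 in D/E-A cells. As RPM, the order was p65 KO at 7157, WT p65 at 6852, K122R at 4120, WT Zmynd8 at 209, Zmynd8 KO at 121.9 and D/E-A at 103, and no neighbours in this order shared limits. The p65 lines thus lay far above the Zmynd8 lines, between which Xist and the neutrophil, B cell and eosinophil markers also differed.

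Ccl24 ran the other way between the 2 sets of lines. It held 1962 reads in WT Zmynd8, 925 in Zmynd8 KO and 512 in D/E-A cells, against 218 in p65 KO, 149 in WT p65 and 17 in K122R cells. As RPM these are 107, 44.0, 28.6, 14.4, 9.51 and 1.02, and no neighbours in this order shared limits. Per length (reads per kilobase of exon), Ccl22 was 1.09 times Ccl24 in WT Zmynd8 cells and 401 times in WT p65 cells.

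Ccl17 was low in all 6 lines. It held 95 reads in WT p65, 72 in K122R, 45 in p65 KO, 35 in WT Zmynd8, 24 in Zmynd8 KO and 15 in D/E-A cells, or 0.837 to 6.06 RPM. Each library shared limits with the next in this order. Per length, Ccl22 was 23.6 to 27.2 times Ccl17 in the Zmynd8 lines and 211 to 532 times in the p65 lines.

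**Figure D3:**
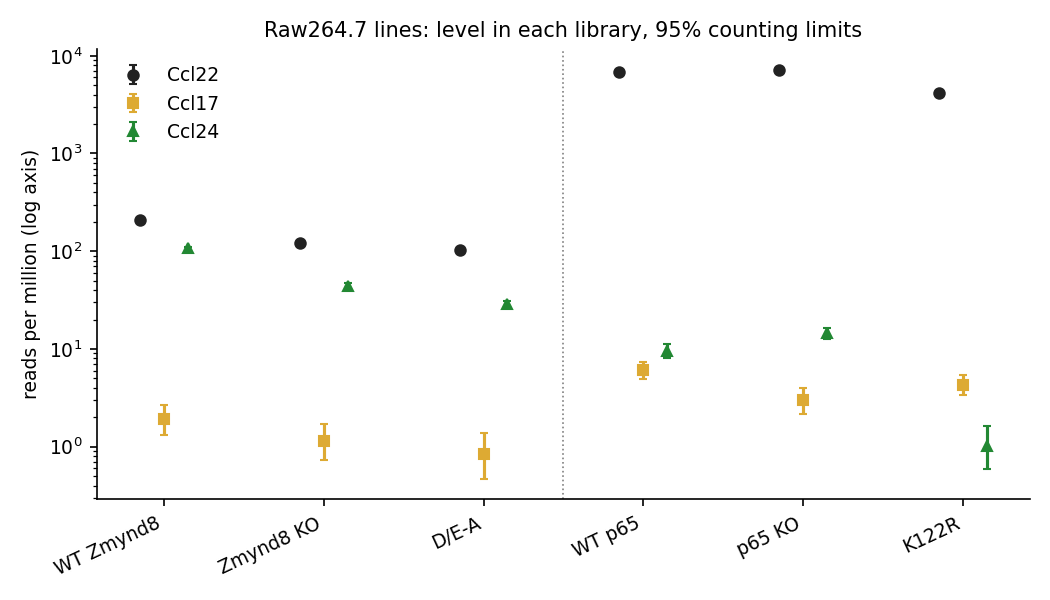
Level of Ccl22, Ccl17 and Ccl24 in each Raw264.7 library, in RPM on a log axis, with Zmynd8 lines left of the dotted line and p65 lines right of it. Points are 1 library each and error bars are exact 95% Poisson limits, which are smaller than the symbols for Ccl22. Ccl22 is higher and Ccl24 lower in the p65 lines than in the Zmynd8 lines.

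Within the Zmynd8 lines, the comparison asks whether the D/E-A protein or the Zmynd8 knock-out goes with another level than the WT protein. Values are compared within a deposited table, and a gene was tested where its mean value was at least 1, which is about 1 read. All 3 members were called lower in D/E-A cells, where 35.9% of 12771 genes were, and all 3 in Zmynd8 KO cells, where 36.5% of 21302 genes were. The 2 comparisons share the WT Zmynd8 library. The D/E-A table lists only genes with 21 or more reads in WT Zmynd8 cells, so Ccl17, with 35 reads there and 15 in D/E-A cells, was listed through the library in which it was higher. In D/E-A cells Ccl24 was at 0.273 times the WT Zmynd8 level (limits 0.248 to 0.301), Ccl22 at 0.502 (0.474 to 0.530) and Ccl17 at 0.449 (0.228 to 0.844). In Zmynd8 KO cells Ccl24 was at 0.434 times (0.401 to 0.469) and Ccl22 at 0.612 (0.582 to 0.644), while the ratio for Ccl17 was 0.631 with limits of 0.359 to 1.09 that include 1. With the binomial test added to the rule, which then called 14.6% of genes lower, Ccl17 was not called in Zmynd8 KO cells. Ccl24 was lower by a fold change of 2 or more in both comparisons, as were 11.4% of genes in D/E-A and 17.3% in Zmynd8 KO cells.

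Some marker lists moved with these values and others did not. The 7 neutrophil markers summed to 10340 RPM in WT Zmynd8, 6960 in Zmynd8 KO and 4419 in D/E-A cells, and the 3 eosinophil markers to 191, 131 and 67.8. The granule gene Prg2 made up 184, 123 and 62.7 of the latter, while Epx was at 5.16, 5.75 and 3.01 and Siglecf was lower in WT Zmynd8 cells than in the others (2.04 and 2.12). The 8 dendritic cell markers summed to 183, 157 and 111, with Ccr7 making up 137, 108 and 71.6 of these and Clec9a lower in WT Zmynd8 cells than in the others (6.08 and 6.64). The B cell sum, at 129, 102 and 147, and the T cell sum, at 8.59, 2.47 and 8.09, followed another order. The 6 macrophage markers ran the other way, at 2184, 2943 and 3690. Their part in the result was not tested. The direction of Ccl22 in Zmynd8 KO cells was opposite to that in cKO BMDMs after LPS or IL-4, and the label of the Zmynd8 KO library names no treatment.

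Within the p65 lines, all 3 members were called lower in K122R cells, where 32.5% of 19670 genes were. Higher genes made up 48.6% of all calls, or 31.3% when RPM replaced the deposited values. Ccl24 was at 0.119 times the WT p65 level (limits 0.067 to 0.196), at the 0.442 percentile of genes tested, on 17 reads against 149. Ccl22 was at 0.664 times (0.658 to 0.671). The Ccl17 ratio was 0.788 with limits of 0.572 to 1.08 that include 1, and with the binomial test added, which called 13.9% of genes lower, it was not called. In p65 KO cells, which share the WT p65 library with this comparison, Ccl17 was called lower, where 25.7% of 19879 genes were, at 0.490 times WT p65 (0.336 to 0.706). Ccl24 was called higher, where 26.3% were, at 1.51 times (1.22 to 1.88). With the binomial test added, both were still called, where 6.89% of genes were called lower and 6.72% higher. Ccl22 was not called, at 1.04 times (1.03 to 1.05). The dendritic cell marker sum was 71.5 RPM in K122R, 114 in WT p65 and 125 in p65 KO cells. In it Ccr7 was at 3.54, 19.0 and 14.5 and Itgax at 40.6, 74.9 and 82.0, while Xcr1 was at 19.2, 9.32 and 14.7, and the part of these markers in the result was not tested. Rela itself was at 3.80 times the WT p65 value in K122R cells and 0.494 times in p65 KO cells.

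The genes on either side were set beside the members to see whether the whole neighbourhood differed. After LPS in cKO against WT, 9 of the 10 nearest genes (5 on each side of Ccl22, each averaging 10 or more counts) were tested. Of these, 0 were called higher and 3 lower, where 22.6% and 13.3% of all genes were. Their log2 fold changes ran from −0.58 for Cx3cl1 (3 counts against 17) to 0.26 for Nlrc5, against 0.83 for Ccl22. After IL-4, 10 were tested, of which 5 were called higher, the member Ccl17 among them, and 0 lower, where 17.3% and 13.4% of all genes were. These 5 were Ccl17 at 1.27, Ciapin1 at 0.51, Nlrc5 at 0.35, Cx3cl1 at 0.33 and Herpud1 at 0.32 on the log2 scale, and the other 5 lay between −0.13 and 0.24. Ccl22 and Ccl17 had the highest log2 fold changes of this stretch after IL-4, with Cx3cl1 between them at 134 counts in cKO and 110 in WT. Around Ccl24, the neighbour Hip1 was lower in cKO after IL-4 (log2 fold change −0.65) and the other 8 tested lay between −0.10 and 0.15.

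**Figure D4:**
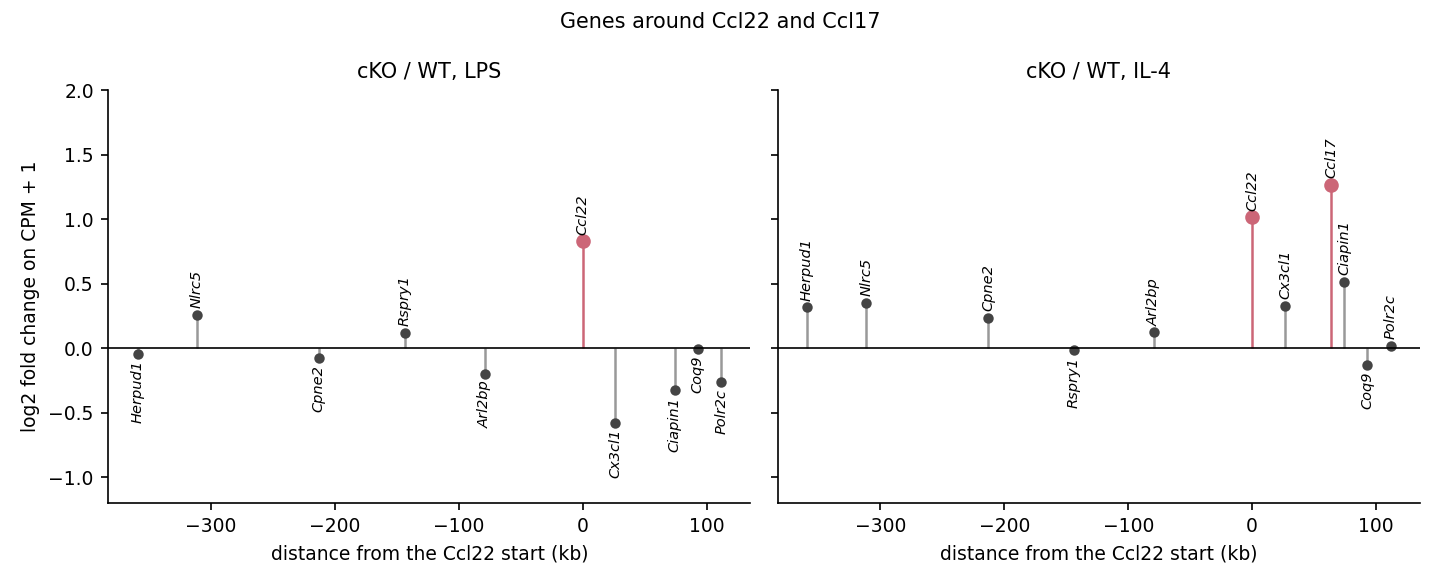
Log2 fold change (cKO over WT, on CPM + 1) of Ccl22 and its 10 nearest tested genes, by the distance of their starts from that of Ccl22 in kb, after LPS on the left and IL-4 on the right. Members are red and other genes grey, and Ccl17 was not tested after LPS. Ccl22 at 0.83 after LPS, and Ccl22 at 1.02 and Ccl17 at 1.27 after IL-4, lie above every other gene drawn.

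Of the receptors, scavenger receptors, peptidase and other eotaxins that act on these ligands (8 genes), only Ccr3 and Dpp4 reached a mean of 10 counts in a comparison of BMDMs. Ccr4 had 0 counts in every BMDM library, which has an exact upper limit of 0.163 CPM in the shallowest of them. Over all 6 libraries Ccl26 had 0 counts and Ccl11 had 1. Ccr3, the receptor for Ccl24, had 319 counts in WT IL-4 and 847 in cKO IL-4, a log2 fold change of 1.45, and 38 against 73 after LPS, a log2 fold change of 0.70. In NT cells it had 581 in WT and 593 in cKO and was not called. Dpp4, the peptidase that trims Ccl22, had 51 counts in WT LPS and 56 in cKO LPS and was not called.

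Among the 15 genes of IL-4 signalling, 3 were called higher and 5 lower in cKO after IL-4, where 17.3% of all genes were higher and 13.4% lower, with a median log2 fold change of 0.01 that is also 0.01 over all genes tested. The receptor chains Il13ra1 (log2 fold change 0.61) and Il2rg (0.45) and the inhibitor Socs1 (0.52) were higher, while Stat6 was not called at −0.26. The 5 called lower were transcription factors, namely Irf4 (2152 counts in WT and 834 in cKO, −1.22), Egr2 (7515 and 3716, −0.89), Batf3 (−0.84), Klf4 (−0.78) and Pparg (−0.74). These stood opposite in sign to Ccl17 and Ccl22 in the same 2 libraries. Over NT, IL-4 libraries had 9 of the 15 called higher in WT and 12 in cKO, where 41.3% and 44.7% of all genes were. They had 1 called lower in each, Il13ra1 in WT (−1.02) and Pparg in cKO (−0.66), where 23.1% and 26.2% of all genes were. Among the higher ones, Cish, Irf4, Egr2 and Socs1 had log2 fold changes of 2.62 to 5.66. After LPS, 2 of the 15 were called higher and 5 lower in cKO, where 22.6% and 13.3% of all genes were, and the receptor gene Il4ra was among the lower ones at −0.64.

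The GM-CSF list held 5 tested genes after IL-4, of which the receptor chains Csf2rb (−0.62) and Csf2rb2 (−0.51) were called lower in cKO and 0 were called higher, where 13.4% of all genes were lower and 17.3% higher. After LPS, 0 of 5 were called, where 13.3% of all genes were lower and 22.6% higher. These 2 chains have near-identical sequence, so the counting could split reads between them. Csf2 itself, which encodes GM-CSF, had 0 counts in WT IL-4 and 4 in cKO IL-4. In the Zmynd8 lines, 5 of 5 list genes tested in D/E-A cells and 5 of 6 in Zmynd8 KO cells were called higher, where 36.7% and 33.8% of all genes were and where the 3 chemokines were lower. Csf2 was among those of Zmynd8 KO cells on 7 reads against 1, with ratio limits of 0.827 to 290 that include 1. Of the 15 IL-4 signalling genes, 12 (D/E-A) and 9 (Zmynd8 KO) were also called higher. There 1 and 2 of the 15 were called lower, where 35.9% and 36.5% of all genes were. In K122R cells, 3 of 6 genes of the GM-CSF list were called higher, namely Csf2ra (1.24), Csf2rb (0.92) and Csf2rb2 (1.95). The 2 called lower were Csf2 and Stat5b (−0.43), where 30.8% of all genes were higher and 32.5% lower. In p65 KO cells 2 were called higher and 1 lower, where 26.3% and 25.7% were. The gene called lower in both was Csf2, with 1532 reads in WT p65, 1057 in p65 KO and 276 in K122R cells.

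Of the 5 NF-κB subunit genes, 3 were called higher in cKO after LPS and 0 lower, where 22.6% of all genes were higher, namely Nfkb1 (log2 fold change 0.50), Rel (0.45) and Nfkb2 (0.32), with a list median of 0.32 against 0.03 over all genes tested. After IL-4, 1 of the 5 was called, Nfkb2 at 0.43, where 17.3% of all genes were higher. Rela, which encodes p65, was not called in NT, LPS or IL-4 (0.22, 0.11 and 0.02). In K122R cells Rela, Relb (0.96) and Nfkb2 (0.77) were called higher than in WT p65 cells, where 30.8% of all genes were, and in p65 KO cells Rela, Rel (−0.44) and Nfkb1 (−0.28) were called lower, where 25.7% of all genes were.

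The BMDM genes whose pattern was most like each member were found by Pearson's r of log2(CPM + 1) over the 6 libraries, among genes that averaged 100 or more counts. For Ccl17 these were Slc7a15 (r = 0.997), Apol7c (0.995) and Tlr2 (0.995). Slc7a15 held 258 counts in WT IL-4 and 536 in cKO IL-4 against 0 to 9 elsewhere, close to the course of Ccl17. For Ccl22 they were Birc3 (0.998), Tagap (0.995) and Rnf19b (0.994), of which Tagap held 1573 counts in WT LPS, 1844 in cKO LPS, 2157 in WT IL-4 and 3812 in cKO IL-4. For Ccl24 they were AB124611 (0.998), Syf2 (0.995) and Dgka (0.994), all highest in WT LPS. Between the members, r was 0.667 for Ccl17 with Ccl22, 0.504 for Ccl22 with Ccl24 and −0.278 for Ccl17 with Ccl24. These are descriptions over 6 points that share 6 libraries and their depth.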

How the data were processed

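For BMDMs, TopHat was used on single-end reads of polyadenylated RNA (mm10 transcriptome). The authors deposited, for each gene, TPM and estimated counts, of which 75.2% to 76.6% of those above 0 are whole. The counter is not given in the sources used here. Of the table entries, 431 (NT and LPS) and 2 (IL-4) held no counts and were left out. For Raw264.7 cells, the authors deposited a signal per gene that is a whole number of reads times a factor per library (within 0.02 of a whole number for 100% of values, but for 1 value in Zmynd8 KO), each table normalized on its own. The D/E-A table lists only genes with at least 21 reads in WT Zmynd8 cells, so its total is incomplete. Beside these, 2 unlabelled columns of per-sample values and the authors' own fold changes and p-values were not used.

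Estimated counts were rounded, divided by library totals and compared as log2(CPM + 1). Deposited signals were compared within a table as log2(value + 1). Genes had to average 10 counts or a value of 1, and were called from a fold change of 1.2 up. The two-sided exact binomial test of reads, adjusted by Benjamini-Hochberg, compares 2 libraries, not conditions, and with the fold rule it called 2706 (p65 KO), 5353 (K122R), 7035 (Zmynd8 KO) and 7900 (D/E-A) genes. Limits on a count are exact Poisson and limits on a ratio Clopper-Pearson. Python 3.11.15 with scipy 1.17.1 and edgeR 4.0.16 (TMM) were used, and the calculation was tested on simulated data. Reads carry no molecular identifiers, so limits cover counting error only.

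The 3 genes, the gene lists, the markers and the comparisons were chosen with earlier results of these data known. Genes named are the 3 members, the genes of the 4 lists, 5 neighbours on each side, Zmynd8, Rela and Lyz2, and the 3 genes most like each member. Xist was added after its values were seen. Itgax, Ccr7, Xcr1, Clec9a, Flt3, Cd209a, Zbtb46, Siglech, Prg2, Siglecf, Epx, Mertk, S100a8, Camp and Ltf come from the marker lists. Of the other marker lists, T cell markers summed to 0 to 0.133 CPM in BMDMs, 2.47 to 8.59 RPM in the Zmynd8 lines and 0 to 0.132 in the p65 lines. Fibroblast markers summed to 0.268 to 1.23, 0.948 to 1.41 and 7.09 to 10.6. Mast cell and basophil markers summed to 0 to 0.306 in BMDMs and 6.47 to 8.81 in the Zmynd8 lines, and were not listed for the p65 lines.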

Additional observations from a re-analysis of the deposited data

Results flagged for a closer look

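The direction of the Ccl22 difference between libraries labelled cKO or Zmynd8 KO and their controls was not the same in every setting. In NT BMDMs the log2 fold change of cKO over WT was −0.33, on 25 counts against 43 and with limits on the ratio that include 1, while it was 0.83 after LPS. Against the same NT value of −0.33, it was 1.02 after IL-4. After LPS in BMDMs the value of 0.83 stood against −0.71 for Zmynd8 KO over WT Zmynd8 in the libraries labelled Raw264.7, whose label names no treatment and which held Xist and neutrophil markers. With 1 library per condition, none of these 3 differences was tested.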

How the results depend on the processing

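No analysis paired by replicate was possible because each condition has 1 library and the labels give no replicate numbers. A fit of genotype with treatment as the block was not run. Ccl17 with IL-4 over NT rests on 1 or 0 NT counts, so its log2 fold change depends on the pseudocount. It ran from 2.80 to 5.61 over the alternatives in WT and from 4.10 to 7.46 in cKO. For the other 26 member fold changes there were 118 alternative values, of which 35 equalled the reported value within 1e-05, among them all 26 without the filter on low values, which cannot change a fold change. Of the other 83, 82 kept the direction of the reported value, and the exception was Ccl24 in cKO over WT after IL-4, which was not called and lay at 0.09 with deposited TPM against −0.03. With a pseudocount of 0.1 the log2 fold change of Ccl22 was 4.66 (LPS over NT in WT), 6.03 (LPS over NT in cKO), 5.83 (IL-4 over NT in WT) and 7.38 (IL-4 over NT in cKO). It was 4.56 for LPS over NT in WT with median-ratio scaling, and −0.73 for K122R with RPM. At a fold change of at least 2, the genes called were 477 (NT), 112 (LPS) and 261 (IL-4) for cKO over WT, 5548 and 5825 for LPS over NT and 2124 and 2740 for IL-4 over NT in WT and cKO, 2345 for D/E-A, 5460 for Zmynd8 KO, 3926 for K122R and 3149 for p65 KO, against 6729, 4449, 4065, 10862, 10829, 8436, 9197, 9271, 14978, 12453 and 10325 at 1.2. With the binomial test added they were 7035 for Zmynd8 KO, 5353 for K122R and 2706 for p65 KO, and with RPM 5954 for p65 KO. The causes of these changes were not tested beyond the rules themselves. Depth limits Ccl24 in BMDMs (9 to 34 counts), where the limits of the cKO over WT ratio span 0.490 to 1.44 with LPS and 0.430 to 2.08 with IL-4, and Ccl17 outside IL-4 (0 or 1 count).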
